A study of Mus musculus with 2 samples.

Results

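The sympathetic control of the heart runs from noradrenaline through adrenergic receptors to cyclic AMP (cAMP) and protein kinase A (PKA). The 9 genes examined here stand at successive steps of that route. They are Dbh (dopamine beta-hydroxylase), the receptor genes Adrb1, Adra1a and Adra1b, the adenylyl cyclase genes Adcy5 and Adcy6, Adrbk1 (G protein-coupled receptor kinase 2), Prkaca (the alpha catalytic subunit of PKA) and Akap6 (the anchoring protein mAKAP). They were chosen by gene symbol, and all 9 of 9 were found among the 22882 symbols of the files, each on a single row.

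Hearts of 5 Med1fl/fl mice (control) and of 5 csMed1-/- mice were compared. Mice of both genotypes were 23 days old, of mixed sex, untreated and on a C57BL6/J background. Both carried the floxed allele of Med1, a subunit of the Mediator complex, and csMed1-/- mice also carried a Cre transgene driven by the alpha-myosin heavy chain (alpha-MyHC) promoter, which is active in cardiomyocytes from late gestation on, so that Med1 is left intact in the other cells of the heart. RNA was pooled within each genotype and 1 library was sequenced per pool, so there are no replicates, the spread between animals is unknown, and differences between the genotypes were not tested.

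Beta receptors couple to the stimulatory G protein, which activates adenylyl cyclase, and the cAMP formed releases the catalytic subunits of PKA. PKA then phosphorylates channels, calcium-handling and sarcomere proteins, by which the heart beats faster and harder and relaxes more quickly. Alpha1 receptors couple instead to Gq and phospholipase C. Receptor kinases and arrestins end the signal, and A-kinase anchoring proteins (AKAPs) hold PKA beside its targets.

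Expression is given in FPKM (fragments scaled to transcript length and to the size of the library), so that levels of different genes can be compared within a library. The targeted gene, Med1, had 3.38 FPKM in control against 0.412 FPKM in csMed1-/- heart, 0.122 times the control level. The files hold 23424 rows per library, and the FPKM summed to 780366 in control and 716365 in csMed1-/- heart. Read counts are not given, but 1 read can be recognised among low values. Of 2461 rows with no more than 0.15 FPKM in either library, 146 lay within 0.02 on the log2 scale of a csMed1-/- to control ratio of 0.722, against 19 and 26 in windows of the same width on either side. If FPKM was scaled by mapped fragments only, csMed1-/- heart was sequenced 1.39 times as deeply. With GENCODE transcript lengths, 1 read on a transcript of 1 kilobase came to about 0.015 FPKM in control and about 0.013 FPKM in csMed1-/- heart, and to less on a longer transcript in proportion. The quotient of these values, 0.867, differs from the 0.722 above, so read numbers are given only for the 2 lowest csMed1-/- values of the 9 genes, as rough sizes.

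Of the 9 genes, 5 were more than 2-fold lower in csMed1-/- heart (Adra1a, Dbh, Adrb1, Akap6 and Adcy6), 0 were more than 2-fold higher and 4 lay within 2-fold (Adra1b, Prkaca, Adcy5 and Adrbk1). The median of their log2 ratios (csMed1-/- over control throughout) was -1.22. As background, a gene counted as kept if neither library listed it at 0 and its higher value reached 1 FPKM. Of the 10489 kept genes, 18.0% were more than 2-fold lower and 13.6% more than 2-fold higher, and their median log2 ratio was -0.07. All 9 genes passed this filter, but Adra1a and Dbh did so through the control library alone and therefore had to differ, so the count and the median describe the genes and support nothing further. In FPKM, Prkaca was the highest and Adra1a the lowest of the 9 in both libraries. Adcy6 stood above Adcy5 and Adrbk1 in control and below them in csMed1-/- heart, and Dbh passed from above Adrb1 and Akap6 to below them.

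**Figure D1:**
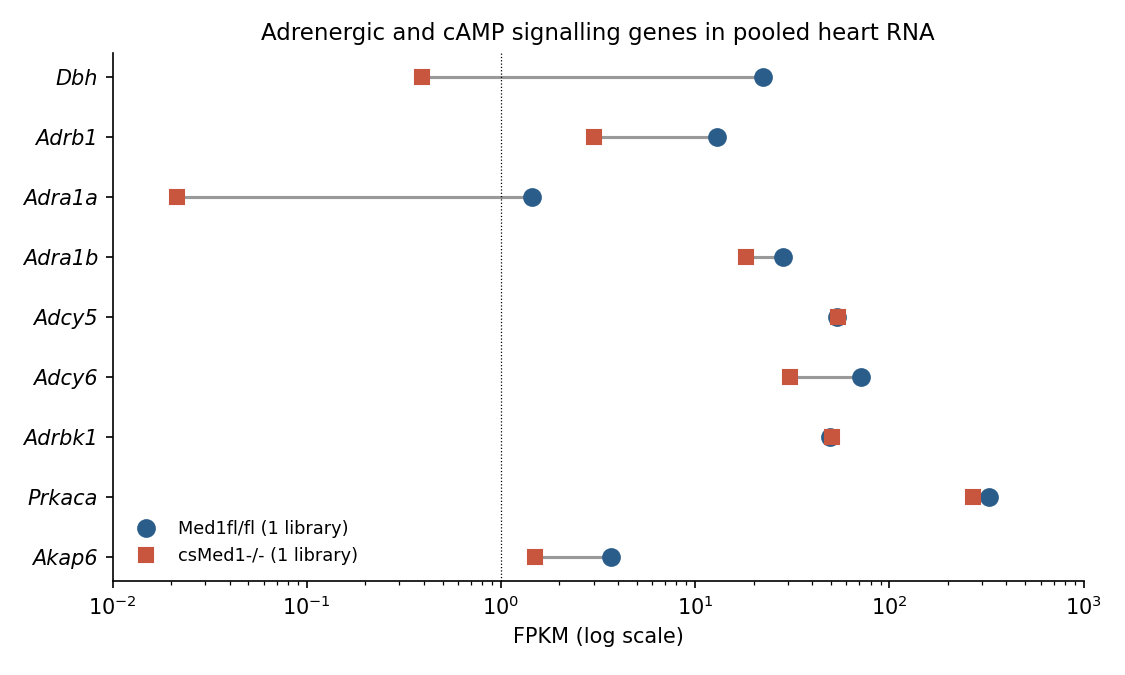
FPKM (log axis) of each of the 9 genes in the pooled Med1fl/fl library (circles) and the pooled csMed1-/- library (squares), joined by a grey line, with the dotted line at 1 FPKM. Dbh and Adra1a have the longest lines and end below 1 FPKM, whereas both symbols of Adcy5 and of Adrbk1 lie on top of each other.

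**Figure D2:**
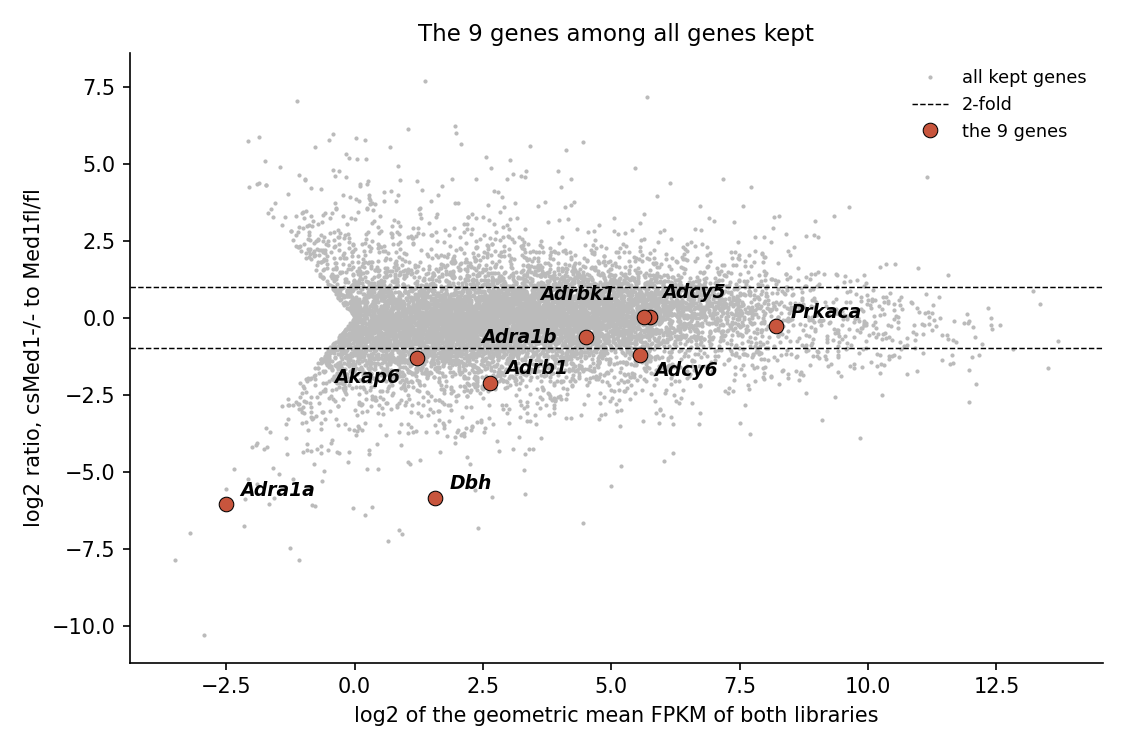
Log2 ratio of csMed1-/- to Med1fl/fl FPKM (vertical axis) against the log2 geometric mean FPKM (horizontal axis) for the 10489 genes kept (grey points), with the 9 genes in red and dashed lines at 2-fold. Dbh and Adra1a lie far below 0 with few genes under them, Adrb1, Akap6 and Adcy6 lie below the lower dashed line, and 4 of the 9 lie between the lines.

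The sequence before the start site is shown for Adrb1 and Akap6, which were lower in csMed1-/- heart, and for Adcy5, which was not, so that their makeup can be compared. The 250 bases come from RefSeq (GRCm38.p6) and read 5′ to 3′ on the plus strand, on which all 3 genes lie. Adrb1 is at chr19:56721867-56722116, Akap6 at chr12:52699133-52699382 and Adcy5 at chr16:35154614-35154863. Capitals mark the letters of a motif that was searched for on both strands.
Adrb1: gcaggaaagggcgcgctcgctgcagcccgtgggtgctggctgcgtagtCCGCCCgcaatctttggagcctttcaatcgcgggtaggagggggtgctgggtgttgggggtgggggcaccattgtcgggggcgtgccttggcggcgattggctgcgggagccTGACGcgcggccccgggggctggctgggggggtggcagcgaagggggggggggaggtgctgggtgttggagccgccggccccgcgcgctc
Akap6: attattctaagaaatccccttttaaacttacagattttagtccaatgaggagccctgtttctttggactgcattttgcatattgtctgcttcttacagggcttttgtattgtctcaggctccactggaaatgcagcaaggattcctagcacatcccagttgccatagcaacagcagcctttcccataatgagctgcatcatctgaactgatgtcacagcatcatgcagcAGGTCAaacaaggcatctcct
Adcy5: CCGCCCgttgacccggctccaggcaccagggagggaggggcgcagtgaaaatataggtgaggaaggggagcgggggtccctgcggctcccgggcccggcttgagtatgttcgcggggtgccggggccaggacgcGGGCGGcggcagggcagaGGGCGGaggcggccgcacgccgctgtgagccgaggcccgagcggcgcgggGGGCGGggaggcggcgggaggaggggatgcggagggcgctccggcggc

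G and C made up 74.0% of the Adrb1 window, 78.0% of the Adcy5 window and 43.6% of the Akap6 window. The cAMP response element (CRE) was searched as its full site TGACGTCA, which 1.55% of all 32851 promoter windows of this length hold, and as its core TGACG, which lies inside the full site and is found in 17.8%. Adrb1 has a CRE core 90 bases before its start. The nuclear receptor element AGGTCA, in 14.0% of all windows, stands 21 bases before the start of Akap6. The GC box GGGCGG, in 32.7% of all windows, occurs 4 times in the Adcy5 window and once in that of Adrb1. Over the 8 start sites that RefSeq gives for 6 of the 9 genes, 3 windows hold a CRE core, 4 a GC box, 1 a nuclear receptor element and 1 an E-box (CACGTG, 6.02% of all windows). A full CRE, the direct repeat AGGTCANAGGTCA (0.0335% of all windows, DR1), CATTCC (12.6%, MCAT) and AGATAA (9.99%, GATA) were found in 0 of the 8. These are matches of letters only, in a window of 250 bases.

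Dbh, which encodes the enzyme that turns dopamine into noradrenaline, had 22.5 FPKM in control against 0.391 FPKM in csMed1-/- heart. The control level was 57.5 times that of csMed1-/- heart (log2 ratio -5.84), which ranked 22 from the lowest of the 10489 kept genes. The csMed1-/- value corresponds to roughly 77 reads. The gene lies on chromosome 2 from 27165233 to 27183200 on the plus strand in GENCODE M21 (GRCm38) and has 12 exons. GENCODE begins its first exon before the RefSeq start, so that the 250 bases before the RefSeq start lie within that exon and are not shown.

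Of 10 genes of catecholamine synthesis, transport and breakdown, 5 were kept. Of these, 3 were more than 2-fold lower and 1 was more than 2-fold higher, against 18.0% and 13.6% of all kept genes. Besides Dbh, the lower genes were Maob, whose product breaks down amines (11.1 against about 1 FPKM, log2 ratio -3.48), and Pnmt, which makes adrenaline from noradrenaline (1.66 against 0.414 FPKM). Dbh and Pnmt passed the filter through control alone and so had to be lower. Of the 2 genes that reached 1 FPKM in each library, 1 was more than 2-fold lower and 0 were more than 2-fold higher. Slc18a1, a vesicular monoamine transporter, was higher at 1.75 FPKM against 0.0516 FPKM in control, having passed the filter through the csMed1-/- library alone, and was also the highest ratio of the marker list below. Ddc, the enzyme that makes dopamine, had 5.09 and 2.59 FPKM (log2 ratio -0.97). Slc22a3, an extraneuronal transporter of noradrenaline, did not reach the filter, with 0.929 FPKM in control against 0.0260 FPKM in csMed1-/- heart.

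Dbh is also a marker of sympathetic neurons and adrenal chromaffin cells, so the other 18 genes of a marker list for these cells were set beside it. Over the 19 genes, 9 were kept, with 3 lower and 3 higher by more than 2-fold, against 18.0% and 13.6% of all kept genes. Besides Dbh and Pnmt, the lower gene was Phox2a, a transcription factor of noradrenergic neurons (1.66 and 0.702 FPKM). The 3 lower genes passed the filter through control alone, and the higher genes Slc18a1 and Tubb3 through csMed1-/- heart alone. Stmn2, a neuronal gene, had 3.83 and 2.31 FPKM. Slc6a2, the noradrenaline transporter, had 0.0350 and 0.00607 FPKM. Th, which encodes the first enzyme of catecholamine synthesis, was listed at 0 in control and at 0.0376 FPKM in csMed1-/- heart, and Chga (chromogranin A) at 0 in both libraries. A 0 in these files can be a failed estimate, since the abundant heart muscle genes Actc1 and Mb are also listed at 0 in control, so it is not read as absence. The summed level without Dbh was 30.0 FPKM in control against 330.8 FPKM in csMed1-/- heart, almost all of the latter from Uchl1 (15.6 against 318.9 FPKM). Without Uchl1 as well, the sums were 14.4 and 11.8 FPKM. The part of such cells in the Dbh values was not tested.

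Adrb1, the gene of the beta1 receptor through which noradrenaline acts on cardiomyocytes, had 13.0 FPKM in control against 3.01 FPKM in csMed1-/- heart, 4.33 times less (log2 ratio -2.11, rank 468 from the lowest). The reference transcript of Adrb1 is a single exon of 2952 bases on chromosome 19 (gene from 56722199 to 56733113, plus strand). Adrb3, the beta3 receptor gene, had 0.00832 and 0.145 FPKM, below the filter.

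Adra1a, which encodes the alpha1A receptor, had 1.44 FPKM in control against 0.0215 FPKM in csMed1-/- heart, the lowest ratio of the 9 genes (log2 ratio -6.06, 66.8 times less, rank 18). The csMed1-/- value corresponds to only about 4 to 7 reads, depending on which of its 3 RefSeq transcripts is taken, so the ratio of Adra1a is the least precise of the 9. Adra1b, the alpha1B receptor, was the most abundant of the adrenergic receptor genes analysed in both libraries, with 28.2 and 18.2 FPKM, and stayed within 2-fold (log2 ratio -0.64, rank 2910). Adra1d, the remaining alpha1 receptor, had 6.92 and 0.800 FPKM (log2 ratio -3.11). The alpha1 genes thus differed among themselves, by 66.8, 8.65 and 1.56 times for Adra1a, Adra1d and Adra1b. Adra1a lies on chromosome 14 (66635251 to 66771168, plus strand) and Adra1b on chromosome 11 (43774606 to 43901210, minus strand).

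Over the 8 adrenergic receptor genes analysed, 5 were kept, 3 of them more than 2-fold lower and 0 more than 2-fold higher, and all 5 had a log2 ratio below 0 (median -2.11), where 18.0% of all kept genes were lower. Adra1a, Adra1d and Adra2b passed the filter through control alone and so had to be lower. Of the 2 genes that reached 1 FPKM in each library, Adrb1 was more than 2-fold lower and Adra1b was not. The summed level of the 8 genes was 51.2 FPKM in control against 23.0 FPKM in csMed1-/- heart. Adra1b made up 55.2% of the sum in control and 78.9% in csMed1-/- heart, whereas Adrb1 made up 25.4% and 13.1%. The quotient of Adra1b to Adrb1 was 2.17 in control and 6.04 in csMed1-/- heart. Shares and quotients of this kind are taken within a library and do not depend on how the libraries were scaled to each other. The alpha2 receptor genes were low, with Adra2b at 1.20 and 0.653 FPKM and Adra2a and Adra2c below the filter.

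Of 16 genes of G protein subunits that couple to these receptors, 12 were kept and 11 of them lay within 2-fold. Of the 12, 1 was more than 2-fold lower and 0 more than 2-fold higher, against 18.0% and 13.6% of all kept genes. Gnas, the stimulatory alpha subunit and the most abundant of them, had 1243 FPKM in control against 1689 FPKM in csMed1-/- heart (log2 ratio 0.44). Gnai2, an inhibitory alpha subunit, had 227.5 and 397.8 FPKM (log2 ratio 0.81). The exception was Gnb5, a beta subunit that pairs with regulators of G protein signalling, at 27.0 and 12.9 FPKM (log2 ratio -1.07). Relative to Adrb1, Gnas was 95.5 times as abundant in control and 562.0 times as abundant in csMed1-/- heart.

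Adcy5 and Adcy6, the pair of adenylyl cyclase isoforms known as the main ones of heart muscle, differed from each other. Adcy6 had 71.7 FPKM in control against 30.8 FPKM in csMed1-/- heart (log2 ratio -1.22, 2.33 times less, rank 1442). Adcy5 had 53.5 and 54.6 FPKM (ratio 1.02, rank 5711). The quotient of Adcy5 to Adcy6 was 0.746 in control and 1.78 in csMed1-/- heart, so that Adcy6 was the more abundant isoform in the control library and Adcy5 in the csMed1-/- library. With other scalings of the libraries the log2 ratio of Adcy5 ran from -0.01 to 0.10, so no direction is given for it. Adcy6 lies on chromosome 15 (98589973 to 98610076, minus strand), where 605 bases of its exons overlap the antisense gene Gm29331, and whether strand was used in counting is not given in the sources used here. Adcy5 lies on chromosome 16 (35154877 to 35305738, plus strand) and overlaps no other exon.

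Of the 10 adenylyl cyclase genes, 6 were kept, and besides Adcy6 only Adcy9 was more than 2-fold lower, at 9.64 and 2.84 FPKM (log2 ratio -1.76). Of the 6, 2 were thus more than 2-fold lower and 0 more than 2-fold higher, against 18.0% and 13.6% of all kept genes. Adcy4 had 20.7 and 12.1 FPKM (log2 ratio -0.78), and Adcy3 and Adcy7 were between 1.82 and 2.76 FPKM in both libraries. The summed cyclase level was 160.0 FPKM in control against 105.2 FPKM in csMed1-/- heart. Adcy6 held 44.8% of it in control and 29.2% in csMed1-/- heart, against 33.4% and 51.9% for Adcy5.

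**Figure D3:**
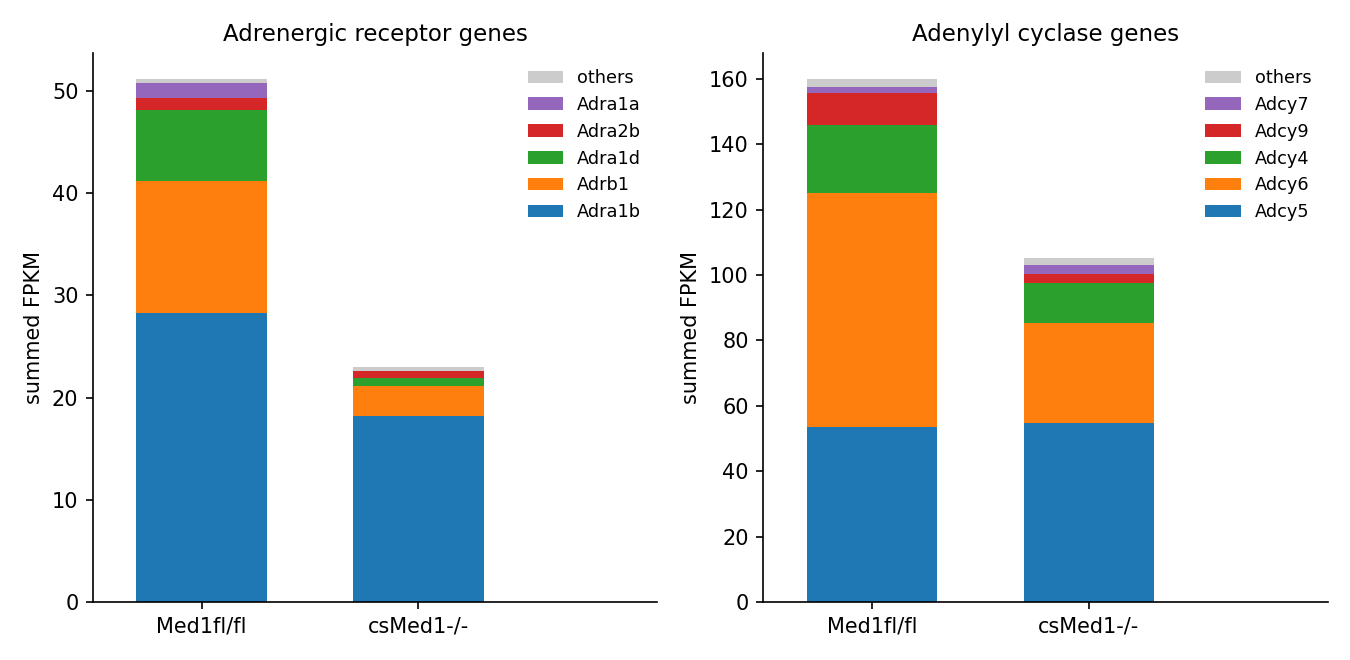
Stacked bars of FPKM in the pooled Med1fl/fl and csMed1-/- libraries for 8 adrenergic receptor genes (left) and the 10 adenylyl cyclase genes (right), the 5 most abundant of each drawn singly and the rest as others. The receptor bar drops from 51.2 to 23.0 FPKM with Adra1b as the widest band in both, and in the cyclase bar the Adcy6 band shrinks from 71.7 to 30.8 FPKM beside an Adcy5 band of 53.5 and 54.6 FPKM.

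Adrbk1 encodes the kinase that phosphorylates activated beta receptors and so starts their desensitisation. It had 49.5 FPKM in control against 50.4 FPKM in csMed1-/- heart (ratio 1.02, rank 5699), and across scalings its log2 ratio ran from -0.02 to 0.10. It lies on chromosome 19 from 4286001 to 4306222 on the minus strand, where GENCODE names it Grk2. With Adrb1 lower, the quotient of Adrbk1 to Adrb1 was 3.80 in control and 16.8 in csMed1-/- heart. Of the 7 receptor kinase and arrestin genes 6 were kept, 5 of them within 2-fold, among them Grk5 (4.97 and 6.05 FPKM) and the arrestin genes Arrb1 (7.83 and 7.19 FPKM) and Arrb2 (8.66 and 8.93 FPKM). The other was Adrbk2, a close relative of Adrbk1, at 2.03 and 4.12 FPKM (log2 ratio 1.02). It was put within 2-fold by 2 other scalings of the libraries (log2 ratio 0.98 and 0.97). Of the 6 genes, 0 were more than 2-fold lower and 1 more than 2-fold higher, against 18.0% and 13.6% of all kept genes.

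Prkaca was the most abundant of the 9 genes, with 326.0 FPKM in control against 269.1 FPKM in csMed1-/- heart (log2 ratio -0.28, rank 4356). It lies on chromosome 8 (83972993 to 83996443, plus strand). Together with Prkacb, the beta catalytic subunit (8.31 and 9.10 FPKM), it made up the catalytic subunit FPKM, of which Prkaca held 97.5% in control and 96.7% in csMed1-/- heart. The regulatory subunit gene Prkar1a had 90.3 and 116.6 FPKM (log2 ratio 0.37), and Prkar2a had 8.97 and 4.83 FPKM (log2 ratio -0.89). Of the 7 kept genes of PKA subunits and inhibitors, Pkia was the only one more than 2-fold lower, at 5.04 and 2.32 FPKM, and 0 were more than 2-fold higher. Pkia encodes an inhibitor of the catalytic subunit, as does Pkig, the most abundant gene of the list in control (342.3 and 199.5 FPKM, log2 ratio -0.78).

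Akap6 encodes mAKAP, which gathers PKA and other signalling enzymes at the nuclear envelope of cardiomyocytes. It had 3.67 FPKM in control against 1.49 FPKM in csMed1-/- heart (log2 ratio -1.30, 2.46 times less, rank 1288). Its transcript of 14847 bases is the longest of the 9 genes. Akap6 lies on chromosome 12 (52699383 to 53155599, plus strand). Of 12 AKAP genes 8 were kept, all 8 had a log2 ratio below 0, and 3 were more than 2-fold lower, of which 1 was left with a pseudocount of 1 FPKM. The other two were Akap1, which tethers PKA to mitochondria (41.5 and 17.5 FPKM, log2 ratio -1.24), and Akap7 (3.37 and 1.32 FPKM, log2 ratio -1.35), whose product AKAP18 holds PKA near calcium channels and phospholamban. The median of the 8 was -0.75, and Akap13 (5.38 and 4.42 FPKM), Akap12 (4.38 and 3.84 FPKM) and Akap8l (12.5 and 10.9 FPKM) lay close to equal levels. Akap10 passed the filter through control alone and so had to be lower. Over all kept genes, 18.0% were more than 2-fold lower.

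Downstream of cAMP, the list of PKA substrates and their controls held 13 kept genes. Of these, 7 were more than 2-fold lower and 0 more than 2-fold higher, against 18.0% and 13.6% of all kept genes. The lowest ratios belonged to Pln (phospholamban, log2 ratio -3.78), Ryr2 (the calcium release channel, -3.28) and Tnni3 (cardiac troponin I, -2.74, from 10283 to 1537 FPKM). Pln and Tnni3 are also on the cardiomyocyte marker list below, whose median log2 ratio was -1.03. The study already reports Pln and Ryr2 as lower from these data, and also Pde1c, a phosphodiesterase gene. The lists were chosen with earlier results known, so the counts of substrates and of phosphodiesterases describe the genes and support nothing further. Rrad, a brake on the calcium channel that PKA relieves, had 227.7 and 49.2 FPKM (-2.21), and Cacna1c, the pore of that channel, had 24.7 and 6.68 FPKM (-1.89). The substrates that were not lower included Fxyd1, or phospholemman (1138 and 1591 FPKM), and Hspb6, a small heat shock protein (1707 and 2930 FPKM). Among other proteins that bind cAMP, the pacemaker channel genes Hcn4 (9.76 and 2.04 FPKM) and Hcn2 (41.1 and 10.5 FPKM) were lower. The exchange factor gene Rapgef4 was also lower (1.93 and 0.405 FPKM), but it passed the filter through control alone and had to be. The Popeye domain gene Popdc2, the most abundant of this list, had 582.2 and 623.2 FPKM. Of 11 kept genes of phosphodiesterases, which end the cAMP signal, 8 were more than 2-fold lower, and 0 were more than 2-fold higher. The lowest ratios were those of Pde1c (3.72 and 0.178 FPKM, log2 ratio -4.39), Pde7a (1.15 and 0.332 FPKM, -1.80), Pde4d (3.33 and 0.996 FPKM, -1.74) and Pde4a (34.9 and 14.6 FPKM, -1.26). Pde4c was 2.01 times lower, and centring the libraries on the median of kept genes put it within 2-fold (log2 ratio -0.93). Of the 8, 4 (Pde1c, Pde4d, Pde7a and Pde7b) passed the filter through control alone, and with a pseudocount of 1 FPKM only 3 of the 8 stayed more than 2-fold lower. Pde4dip, the most abundant gene of the list, had 285.6 and 124.7 FPKM but encodes a protein that binds a phosphodiesterase, and is not counted among them.

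**Figure D4:**
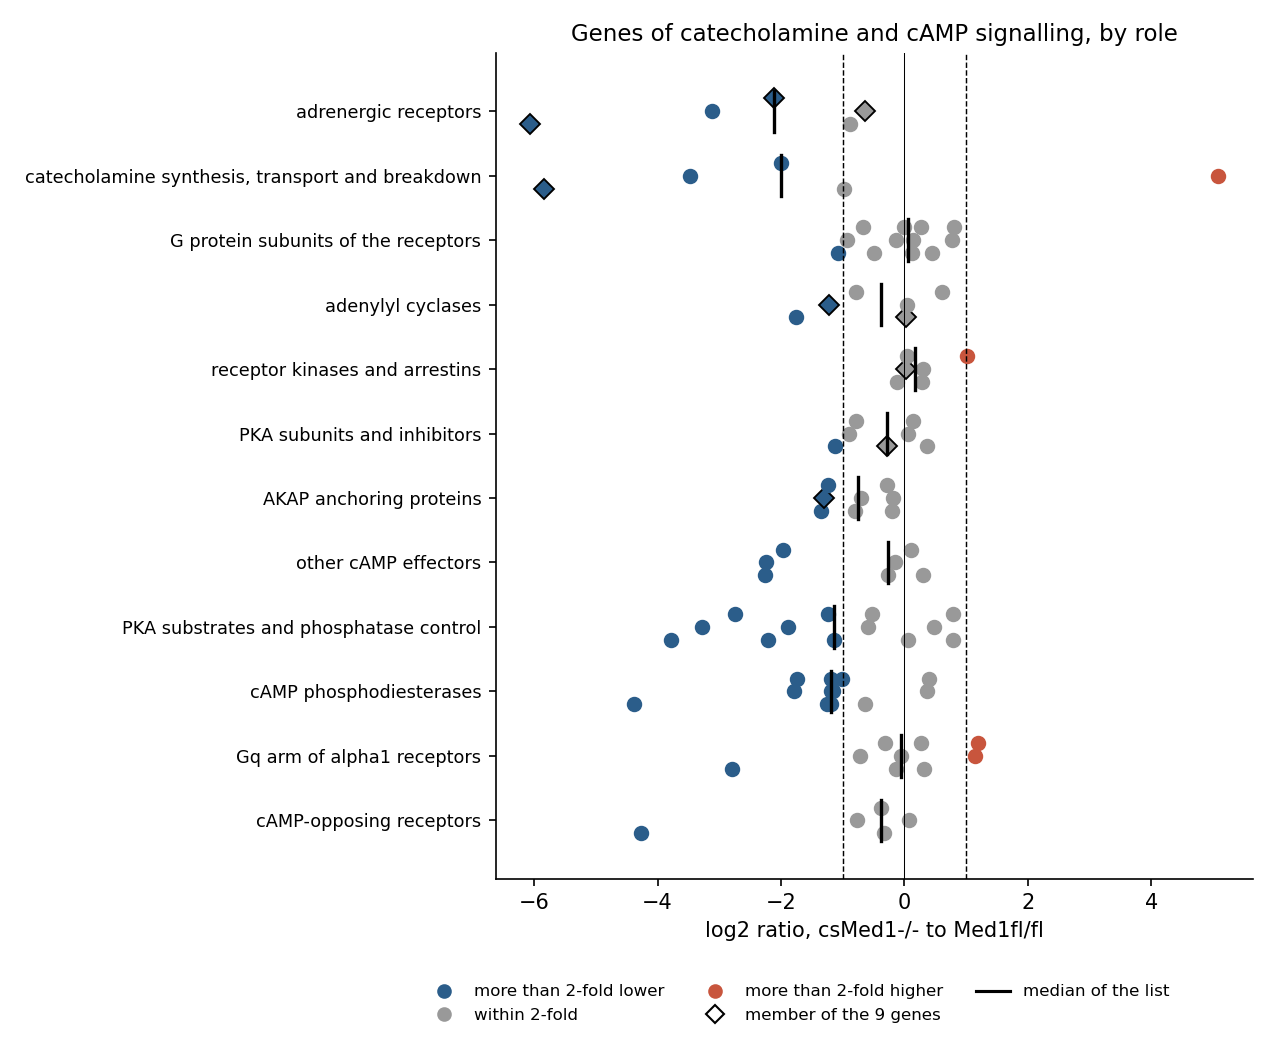
Log2 ratio of csMed1-/- to Med1fl/fl FPKM for each kept gene of 12 lists ordered by role, blue more than 2-fold lower, red more than 2-fold higher and grey within 2-fold, with diamonds for the 9 genes, black bars for list medians and dashed lines at 2-fold. Medians of the lists of receptors, catecholamine genes, phosphodiesterases (with Pde4dip) and PKA substrates lie below the lower dashed line, at -2.11, -2.00, -1.19 and -1.14. Those of G protein subunits and of receptor kinases and arrestins lie at 0.06 and 0.17, and that of all kept genes at -0.07. Of the receptors 3 of 5, of the catecholamine genes 2 of 5 and of the phosphodiesterase list 4 of 12 passed through control alone. These genes had to be lower.

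Over all pathway lists, which share some genes, 93 of 128 genes were kept, 34 more than 2-fold lower and 4 more than 2-fold higher, with a median log2 ratio of -0.64. Of the 81 that reached 1 FPKM in each library, 25 were lower and 3 higher. Of all 9160 genes that did so, 1342 were lower and 1037 higher. Without the 9 genes named at the start, the count was 29 lower and 4 higher of 84, against the 18.0% and 13.6% of all kept genes. The lists include Pln, Ryr2 and Pde1c, which the study already reports as lower from these data, so these counts are descriptive.

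Markers of the tissue were read beside these values, since in RNA of a whole heart fewer cells of a type and less RNA per cell cannot be told apart. Of 12 cardiomyocyte markers 9 were kept, 5 more than 2-fold lower and 0 more than 2-fold higher, with a median log2 ratio of -1.03. Over all kept genes, these shares were 18.0% and 13.6%. Myl2, the most abundant in control, had 20467 FPKM in control against 6571 FPKM in csMed1-/- heart, the lowest ratio was that of Pln, and the highest was that of Actn2 (1286 and 1892 FPKM, log2 ratio 0.56). Actc1 and Mb were listed at 0 in control and at 9189 and 1040 FPKM in csMed1-/- heart, although every heart muscle cell uses them. Without them the summed cardiomyocyte markers were 62344 and 29119 FPKM. Adcy6 and Akap6 had log2 ratios of -1.22 and -1.30, close to that median, Adrb1, Dbh and Adra1a lay below it, and the other 4 genes lay above it. Of 12 atrial and conduction markers 8 were kept, 2 lower and 2 higher, against 18.0% and 13.6% of all kept genes. Tbx3, 1 of the 2 lower, passed the filter through control alone and so had to be lower. Ratios ran from Hcn4 (-2.26) to Nppa (468.5 and 11114 FPKM, 4.57), which the study also uses as an indicator of heart failure.

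The other marker lists were mixed. Their counts past 2-fold stand beside 18.0% lower and 13.6% higher among all kept genes. Fibroblast markers summed to 2042 FPKM in control against 2468 FPKM in csMed1-/- heart (1 lower and 4 higher of 9 kept, from Lum at -1.11 to Postn at 4.13, Gsn the most abundant), and endothelial markers to 761.5 and 1092 FPKM (3 lower and 2 higher of 10, from Tek at -1.90 to Cldn5 at 3.11, Fabp4 the most abundant in control). Smooth muscle and pericyte markers summed to 748.3 and 1145 FPKM (2 lower and 3 higher of 9, from Abcc9 at -3.43 to Cnn1 at 7.17, Acta2 the most abundant in control), macrophage markers to 413.0 and 486.4 FPKM (0 lower and 1 higher of 8, from Emr1 at -0.91 to Cd14 at 1.29, Lyz2 the most abundant in control), and Schwann cell markers to 65.9 and 123.0 FPKM (2 lower and 1 higher of 4, from Mbp at -1.66 to Pmp22 at 1.05, Pmp22 the most abundant). Mbp passed the filter through control alone and so had to be lower. The direction of 3 of the sums above rested on 1 gene each. The endothelial sum was 704.9 and 601.5 FPKM without Cldn5, the smooth muscle and pericyte sum 744.0 and 523.0 FPKM without Cnn1, and the Schwann cell sum 8.95 and 4.68 FPKM without Pmp22. The part of a changed cell makeup in the values of the 9 genes was not tested.

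**Figure D5:**
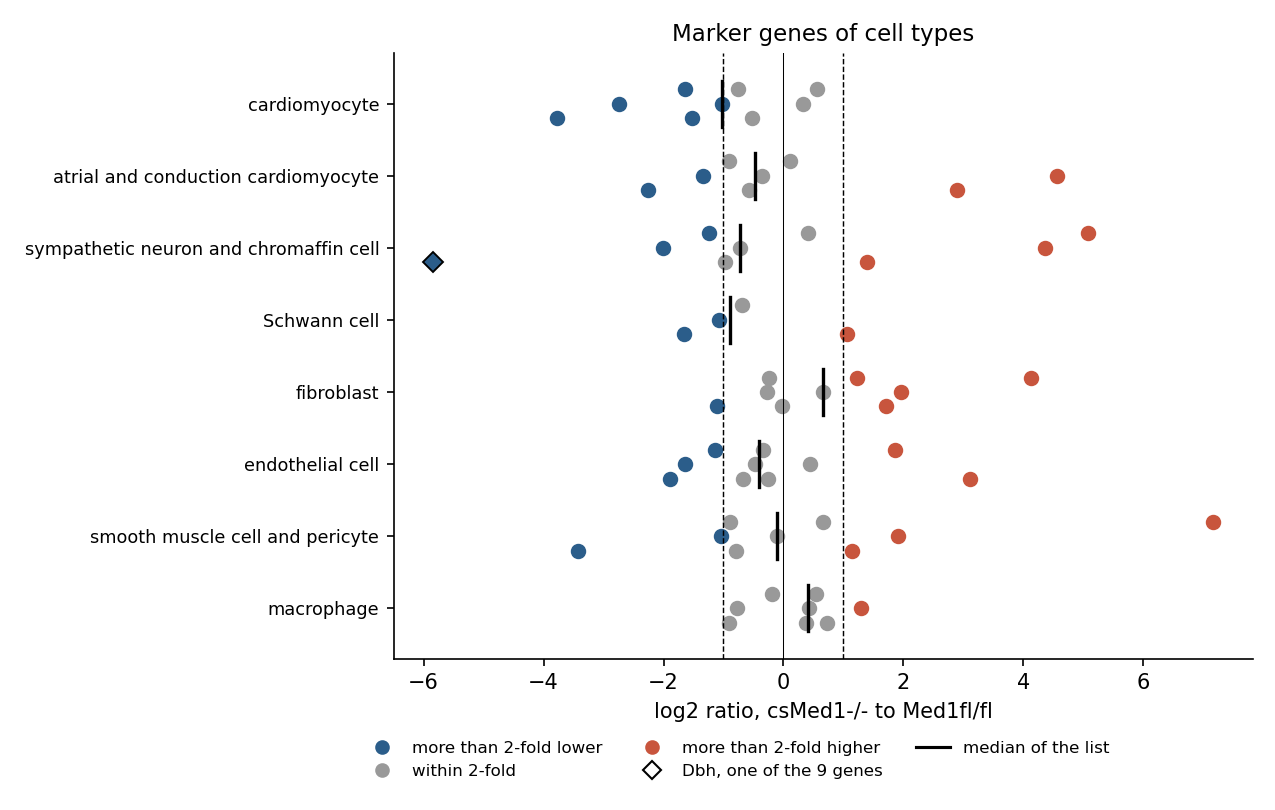
Log2 ratio of csMed1-/- to Med1fl/fl FPKM for each kept marker gene of 8 cell types, coloured as more than 2-fold lower (blue), within 2-fold (grey) or more than 2-fold higher (red), with black bars at list medians and dashed lines at 2-fold. The cardiomyocyte median lies at -1.03 and that of fibroblasts at 0.66, and the diamond is Dbh, at -5.84 the lowest point of the plot.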

How the data were processed

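Polyadenylated heart RNA, pooled from 5 mice per genotype, was sequenced by the authors as directional 50 bp single-end libraries. According to the study's methods, reads were mapped by the authors with TopHat (v2.0.8b) against mm10, and the deposited FPKM of known genes came from their Cufflinks (v2.1.1) and cuffdiff runs. The submitters' processing notes also name STAR (2.4.0h), Bowtie2 and other tools without a role, and how cuffdiff scaled the libraries is not given in the sources used here.

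From these values, rows sharing a symbol (412 symbols) were summed, the plain csMed1-/- to control ratio was taken, and a change was counted past 2-fold, with no pseudocount. The computation was tested on simulated data. The 9 genes, the lists and the motifs were chosen with earlier results of these data known. Named genes are the 9, Med1, up to 5 genes per direction past 2-fold in each pathway list, the most abundant gene of a list, and the extremes of marker lists. Those named beyond this, such as Th, Slc6a2, Stmn2, Slc22a3 and genes within 2-fold, were picked after their values were seen. Akap2, Myh6 and, under that symbol, Adgre1 (present as Emr1) were not analysed here. Some genes of the lists are not reported here and were left out of their counts and sums. No protein sequence was used. Gene positions and lengths came from GENCODE M21 (GRCm38, the same assembly as mm10), and motif windows from RefSeq. Alternatives were pseudocounts, filters, scalings, thresholds and the choice of rows. Python 3.11.15, numpy 2.4.6, pandas 2.3.3 and matplotlib 3.10.9 were used.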

Additional observations from a re-analysis of the deposited data

How the results depend on the processing

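Each genotype has 1 library, so no replicate could be left out, and no paired analysis was possible because there is only 1 sample per group. Of 95 single values of the 9 genes under the alternatives, 91 kept their side of the threshold and 0 changed sign past it. Akap6 came within 2-fold with a pseudocount of 1 FPKM (log2 ratio -0.91). The count of 5 lower genes among the 9 became 3 of 7 with 1 FPKM or more required in both libraries, which removes Adra1a and Dbh. It became 3 of 7 with 10 FPKM in at least 1 library, which removes Adra1a and Akap6, and 3 of 9 at 4-fold. Over all genes, counts lower and higher were 3182 and 2504 of 15930 without the filter on low values. They were 1342 and 1037 of 9160 with 1 FPKM in both libraries, and 885 and 821 of 5426 with 10 FPKM in at least 1 library. Of the 10489 genes of the main filter, 3120 and 2488 passed 1.5-fold, and 539 and 453 passed 4-fold. Of the pathway lists, 16 genes were lower and 0 higher with 10 FPKM in at least one library, 15 and 1 at 4-fold, and higher genes numbered 9 at 1.5-fold and 2 with a pseudocount of 1 FPKM. In alternatives chosen after seeing the data, the log2 ratio of summed markers turned to -0.23 for endothelial cells without Cldn5, -0.51 for smooth muscle cells and pericytes without Cnn1 and -0.94 for Schwann cells without Pmp22, and stayed above 0 for fibroblasts without Col1a1 and macrophages without C1qb. The scalings moved log2 ratios by -0.04 to 0.07. Low depth limits Adra1a most.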

Other observations

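Alpha1 receptors signal through Gq, and the genes of that arm were measured as a list of 12, of which 9 were kept. Rgs2, a regulator that shortens Gq signals, was more than 2-fold lower (8.88 FPKM in control against 1.27 FPKM in csMed1-/- heart, log2 ratio -2.80). The protein kinase C genes Prkca (3.33 and 7.39 FPKM, log2 ratio 1.15) and Prkcd (4.25 and 9.68 FPKM, log2 ratio 1.19) were more than 2-fold higher, and Prkce had 2.23 and 2.14 FPKM. Gna11, the most abundant gene of the list, had 65.7 and 59.6 FPKM (log2 ratio -0.14), and the list's median log2 ratio was -0.06. Of the 9 kept genes, 1 was more than 2-fold lower and 2 more than 2-fold higher, against 18.0% and 13.6% of all kept genes.

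Among 6 genes of receptors and ligands that oppose or modulate the cAMP signal in the heart, 5 were kept. Aplnr, the apelin receptor, had 46.6 FPKM in control against 2.41 FPKM in csMed1-/- heart (log2 ratio -4.27), while its ligand gene Apln had 4.60 and 2.69 FPKM (log2 ratio -0.77). Chrm2, the muscarinic receptor through which the vagus nerve slows the heart, had 2.02 and 1.61 FPKM, and Adora1, the adenosine A1 receptor, had 11.7 and 8.98 FPKM, both within 2-fold. None of these values has a replicate.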
